A study of Homo sapiens with 8 samples.

Results

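This comparison asks what still differed from unmodified cells, and in which direction, after the full-length isoform of estrogen receptor beta (ERβ) had been returned to cells that lacked the receptor. It sets the 2 libraries titled U87-ERβ1 against the 2 titled U87-control, which are 4 of the 8 libraries of the series. It covers 13915 of the 23228 genes listed, namely those that passed a filter on low read counts. U87-control stands for unmodified cells that carry the label U87 MG, the name of an established line from a human glioblastoma. U87-ERβ1 stands for cells of that line in which ERβ was first removed with CRISPR/Cas9 and the ERβ1 isoform was then put back, so these cells carry the knockout and the added isoform together. The knockout parent (U87-ERβ-KO) and knockout cells given the ERβ5 isoform (U87-ERβ5), 2 libraries each, appear below only where their levels help to place a gene. All cells grew in DMEM with serum, and total RNA was sequenced. A hormone or drug treatment, the promoter of the added isoform and whether the cells were a clone or a pool do not appear in the sources used here. The title of the series asks whether isoforms of ERβ act differently in glioblastoma.

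ERβ is a nuclear receptor that binds estrogens and changes transcription, either by binding DNA or through other factors. Its isoform ERβ1 has an intact ligand-binding region and is often described as a brake on the growth of tumor cells, opposite to estrogen receptor alpha. Genes of DNA replication are turned on by E2F factors as cells enter the cycle, and genes of mitosis are turned on later by a complex of MYBL2 and FOXM1. Interferon-stimulated genes are turned on when interferons bind their receptors at the cell surface.

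Gene reads per library lay between 26760897 and 48076414, and the U87-ERβ1 libraries held both the lowest and the highest of these totals. Levels are given as CPM, a gene's share of all gene reads of a library at a fixed total, scaled between libraries with TMM factors, and they compare a gene between libraries and not genes with each other. Replicates correlated at r = 0.9948 in control and 0.9919 in ERβ1 across genes, which are not independent points. Replicates still lay further apart than sampling noise, since chi-square divided by its degrees of freedom was 7.52 in control and 21.55 in ERβ1. No label states that the 2 libraries of a group are separate cultures. P-values therefore reflect the spread between the libraries, and that spread may be technical. The log2 level of a library over the mean of all libraries correlated across genes with the GC content of transcripts, at r = 0.119 and 0.182 in control, and at r = 0.331 and -0.127 in ERβ1.

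The labelled cell type was checked against its defining markers. Of 9 markers of astroglia and glioblastoma, 1 reached 10 CPM in all 4 libraries, and S100B, AQP4, OLIG2 and PDGFRA had 0 reads. The 1 that did, the neural progenitor factor SOX2, lay at 20.8 and 16.9 CPM in control and at 11.4 and 16.6 CPM in ERβ1. All 9 markers of luminal epithelium exceeded that level, from 115 to 4453 CPM. The glioblastoma label was therefore not borne out by these markers, in control as in ERβ1.

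ESR2, the gene of ERβ (chromosome 14, 64550950 to 64804830, minus strand, GRCh37), had 25 and 20 reads in control and 6 and 18 in ERβ1. These reads correspond to 0.608 and 0.546 CPM in control and 0.225 and 0.372 CPM in ERβ1. ERβ1 held no more ESR2 reads than control, and the difference did not pass the test (log2 change -0.87 ± 0.41 (SE), edgeR adjusted p = 0.27). The counts thus do not bear out the label of the added isoform, and whether a construct would have been counted as ESR2 was not tested. Every direction below is one between the libraries labelled U87-ERβ1 and those labelled U87-control, called ERβ1 and control for short.

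Across the 13915 genes tested, 565 changed at an adjusted p under 0.05 in edgeR's quasi-likelihood test, which is 4.06% of them. Of these, 189 were higher in ERβ1 (1.36% of all genes tested) and 376 were lower (2.70%). The falls were larger as well as more frequent, with a median log2 change of -0.92 among the lower genes and 0.71 among the higher ones. A change of at least 2-fold was reached by 164 genes that fell and by 41 that rose. In all 565 the 2 ERβ1 libraries lay wholly above or wholly below the 2 control libraries. How many of all genes tested separate in this way was not counted, so the separation adds no support to the calls. Protein-coding genes made up 361 of the lower and 176 of the higher genes. The median log2 change over all genes tested was 0.01.

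The number of calls depended on every library. It was 128 without control 1, 232 without control 2, 235 without ERβ1 1 and 217 without ERβ1 2, and the higher genes numbered 14, 49, 71 and 68 in the same order. With replicate numbers as a block, and the trend with GC content and length removed, 43.8% of the changed genes were higher, against 33.5% in the fit reported here.

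**Figure D1:**
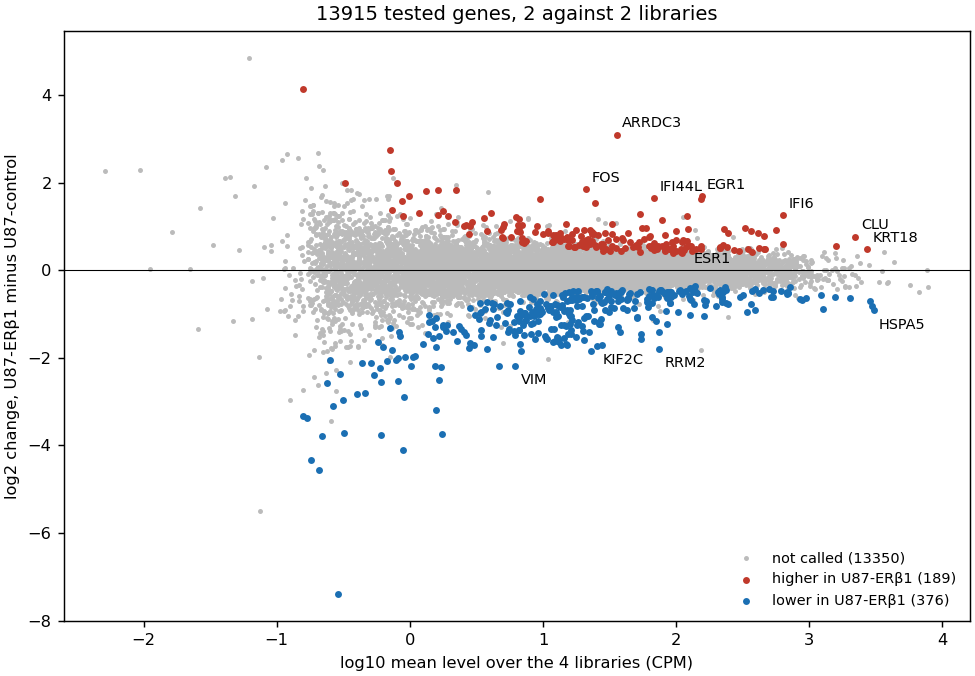
Each point is a gene, placed by the log10 of its mean level over the 4 libraries (horizontal, CPM) and its log2 change, ERβ1 minus control (vertical); red points are the 189 genes called higher, blue points the 376 called lower and grey points the rest. ESR1 sits at 0, VIM, RRM2 and KIF2C lie well below the line, and ARRDC3, FOS and EGR1 lie well above it.

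Genes of mitosis formed the group with most falls. Of 50 listed and tested members, 42 fell (84% against 2.70% of all genes) and 0 rose, and all 50 had a negative log2 change. The median was -1.18, against 0.01 over all genes tested. With any 1 library left out, 28 to 38 members fell. The largest falls included genes of the centromere, condensin, spindle motors, the chromosomal passenger kinase and the cyclin that carries cells into division.

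KIF2C, a kinesin that takes microtubules apart at kinetochores (chromosome 1, 45205490 to 45233439), lay at 41.5 and 36.3 CPM in control and 12.1 and 11.5 CPM in ERβ1. It fell 3.29-fold (log2 change -1.72 ± 0.16 (SE), edgeR adjusted p = 0.000258), and both ERβ1 libraries were below both control libraries. The chromokinesin KIF4A lay at 25.2 and 21.3 CPM in control and 7.06 and 7.17 CPM in ERβ1 (log2 change -1.71 ± 0.17 (SE), edgeR adjusted p = 0.000366). Its near-identical copy KIF4B is listed at 5.23 and 4.12 CPM in control and 1.43 and 1.43 CPM in ERβ1, so how their reads divide between the copies is uncertain, although the levels of each fell to about the same degree (-1.71 on the log2 scale, edgeR adjusted p = 0.000917). The kinase AURKB, which corrects faulty attachment of chromosomes, lay at 21.9 and 20.0 CPM in control and 6.80 and 6.03 CPM in ERβ1 (log2 change -1.72 ± 0.18 (SE), edgeR adjusted p = 0.000468). KIF20A, a motor needed in cytokinesis, went from 46.2 and 39.1 CPM to 12.3 and 13.7 CPM (log2 change -1.71 ± 0.17 (SE), edgeR adjusted p = 0.000368). In each of these genes the replicates of a group sat close together and far from the other group. For KIF2C, KIF4A, AURKB and KIF20A the lack of overlap was a condition of their choice.

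CENPA, the histone variant that marks centromeres, was at 6.13 and 5.71 CPM in control and 1.24 and 2.04 CPM in ERβ1 (log2 change -1.79 ± 0.26 (SE), edgeR adjusted p = 0.00243). The condensin subunit NCAPG was at 11.5 and 10.0 CPM in control and 2.22 and 3.64 CPM in ERβ1 (log2 change -1.84 ± 0.22 (SE), edgeR adjusted p = 0.000917). Here ERβ1 1 was the lower of the ERβ1 libraries in either gene, yet both were well under control. Cyclin A2 (CCNA2) was at 24.8 and 20.4 CPM in control and 5.67 and 8.24 CPM in ERβ1 (log2 change -1.68 ± 0.18 (SE), edgeR adjusted p = 0.000547). TROAP, a protein of the spindle outside the list, was at 36.0 and 35.3 CPM in control and 10.7 and 9.13 CPM in ERβ1 (log2 change -1.85 ± 0.14 (SE), edgeR adjusted p = 0.000103). BIRC5 (survivin), partner of AURKB, was at 27.1 and 25.5 CPM in control and 8.86 and 9.36 CPM in ERβ1 (log2 change -1.53 ± 0.13 (SE), edgeR adjusted p = 0.000157). PTTG1 (securin), which holds back the separation of chromatids and has close copies that can share its reads, was at 20.2 and 17.9 CPM in control and 6.46 and 6.71 CPM in ERβ1 (log2 change -1.53 ± 0.14 (SE), edgeR adjusted p = 0.000334). All of them kept their call with any 1 library left out.

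Further genes of division are given here after their values were seen. The mitotic kinase CDK1 lay at 38.4 and 35.1 CPM in control and 13.9 and 18.5 CPM in ERβ1, the DNA untangling enzyme TOP2A at 120.3 and 97.5 CPM in control and 36.5 and 44.6 CPM in ERβ1, and PLK1 at 26.1 and 20.7 CPM in control and 8.90 and 9.15 CPM in ERβ1. The regulators MYBL2 and FOXM1 were lower too. MYBL2 was at 54.4 and 50.6 CPM in control and 22.0 and 20.5 CPM in ERβ1. FOXM1 was at 65.0 and 59.7 CPM in control and 34.7 and 33.6 CPM in ERβ1. A link between their falls and those of the other genes was not tested. Log2 changes of CDK1, TOP2A, PLK1, MYBL2 and FOXM1 ran from -0.87 ± 0.10 (FOXM1) to -1.42 ± 0.14 (TOP2A), and edgeR adjusted p ran from 0.000157 (MYBL2) to 0.000844. The proliferation marker MKI67 fell by 1.16 ± 0.17 on the log2 scale (edgeR adjusted p = 0.00268), and without ERβ1 2 its adjusted p was 0.0529. Cyclin B1 (CCNB1), the partner of CDK1, changed far less, by -0.45 ± 0.11 (edgeR adjusted p = 0.0354), and did not pass with any 1 library left out (adjusted p from 0.0701 to 0.388).

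These genes did not lie between the knockout and control. KIF2C was at 80.2 and 80.4 CPM in ERβ-KO, above control, so that ERβ1 lay below both. CDK1 was at 74.0 and 78.8 CPM in ERβ-KO and at 26.2 and 26.4 CPM in ERβ5. The median of the mitosis list was 0.86 for ERβ-KO minus control, -1.18 for ERβ1 minus control and -0.38 for ERβ5 minus control. These comparisons share the control libraries, so the values stand side by side and are not independent of each other.

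Promoters are shown for members that moved together, since many genes of mitosis carry a cell cycle homology region (CHR, TTTGAA) near a CCAAT box. Both were searched on both strands of 300 bases around each start, 250 before and 50 after, in RefSeq promoters (GRCh38.p14, while the counts use hg19). Among the 37 of the 42 lower mitosis genes with a promoter in the table, 27 held TTTGAA (73%), against 15.4% of all 27305 promoters. CCAAT was found in 28 of the 37 (75.7%), against 35.7% of all promoters. The promoters of KIF4A (chrX:70289854-70290153, plus strand), with a TTTGAA beginning 34 bases before the start and a CCAAT on the other strand 58 bases before it, and PTTG1 (chr5:160421605-160421904, plus strand), with 3 CCAAT matches of which 2 overlap and no TTTGAA, read as follows, with the matches in capitals.
KIF4A: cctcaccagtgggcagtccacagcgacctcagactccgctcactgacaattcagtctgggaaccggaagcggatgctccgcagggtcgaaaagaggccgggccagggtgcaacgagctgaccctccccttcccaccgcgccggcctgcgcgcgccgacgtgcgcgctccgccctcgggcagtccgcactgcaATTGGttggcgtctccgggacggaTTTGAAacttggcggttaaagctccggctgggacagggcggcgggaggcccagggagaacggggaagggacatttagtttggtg
PTTG1: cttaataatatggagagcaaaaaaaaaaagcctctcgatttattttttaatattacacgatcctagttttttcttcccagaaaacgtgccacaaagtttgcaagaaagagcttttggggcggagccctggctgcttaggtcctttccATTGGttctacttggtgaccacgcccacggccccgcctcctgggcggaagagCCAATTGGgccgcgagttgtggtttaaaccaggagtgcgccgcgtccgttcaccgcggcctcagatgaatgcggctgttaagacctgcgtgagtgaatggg
The window of KIF2C held neither motif. Of 6 tested mitosis genes with a promoter that were not called, 4 held TTTGAA. A match describes the letters of the window and is not a measured binding site.

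Some genes of DNA replication, deoxynucleotide synthesis and homologous recombination fell as well, though most members of these lists did not pass. Of 46 replication genes, 15 fell and 0 rose (32.6% against 2.70%), with a median of -0.33. Of 14 genes of deoxynucleotide synthesis, 4 fell (28.6% against 2.70%) and 0 rose, with a median of -0.34. Of 33 genes of homologous recombination and the Fanconi pathway, 8 fell (24.2% against 2.70%) and 0 rose, with a median of -0.38. Among 25 cyclins, CDKs and RB and E2F genes, 6 fell (24% against 2.70%) and 1 rose (4% against 1.36%), with a median of -0.19. The 6 were CCNE2, E2F1, E2F2, E2F8, CDKN2C and MYBL2, and the 1 that rose was CCND1.

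RRM2, the regulated subunit of ribonucleotide reductase (chromosome 2, 10260825 to 10351851), was at 131 and 101 CPM in control and 32.1 and 34.7 CPM in ERβ1. It fell 3.47-fold (log2 change -1.79 ± 0.14 (SE), edgeR adjusted p = 0.000103). The lower control library was still far above the higher ERβ1 library. TK1 (thymidine kinase) was at 39.0 and 36.1 CPM in control and 16.2 and 16.1 CPM in ERβ1 (log2 change -1.22 ± 0.13 (SE), edgeR adjusted p = 0.000547), and TYMS (thymidylate synthase) at 57.6 and 54.5 CPM in control and 32.1 and 27.5 CPM in ERβ1 (log2 change -0.91 ± 0.11 (SE), edgeR adjusted p = 0.0011). The fourth, the dUTP-clearing enzyme DUT, was at 26.8 and 23.8 CPM in control and 13.2 and 15.2 CPM in ERβ1 (log2 change -0.83 ± 0.18 (SE), edgeR adjusted p = 0.0235) and did not pass with any 1 library left out (adjusted p from 0.0603 to 0.23).

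The licensing factor CDT1, which loads the replicative helicase, was at 90.6 and 71.4 CPM in control and 27.7 and 27.0 CPM in ERβ1 (log2 change -1.57 ± 0.17 (SE), edgeR adjusted p = 0.000634). CDC45, which activates that helicase, was at 18.1 and 16.6 CPM in control and 8.53 and 8.26 CPM in ERβ1 (log2 change -1.05 ± 0.12 (SE), edgeR adjusted p = 0.000844), and its partner GINS2 at 42.5 and 40.6 CPM in control and 23.9 and 22.5 CPM in ERβ1 (log2 change -0.84 ± 0.10 (SE), edgeR adjusted p = 0.00108). The primase subunit PRIM1 was at 31.5 and 26.6 CPM in control and 9.80 and 12.3 CPM in ERβ1 (log2 change -1.39 ± 0.16 (SE), edgeR adjusted p = 0.000844). These 4 genes fell with each 1 of the 4 libraries left out. The helicase subunit MCM2 (-0.47 ± 0.11) and the sliding clamp PCNA (-0.51 ± 0.12) changed less (edgeR adjusted p = 0.0372 and 0.0348), and were picked once their values were known. Neither MCM2 nor PCNA passed against a minimum change of 1.5-fold. With 1 library left out the log2 change of MCM2 ran from -0.58 to -0.35 and that of PCNA from -0.59 to -0.43. The atypical E2F factor E2F8, a repressor, was at 11.2 and 9.44 CPM in control and 2.93 and 3.41 CPM in ERβ1 (log2 change -1.69 ± 0.18 (SE), edgeR adjusted p = 0.000609), and MND1, a partner of recombination proteins outside these lists, at 8.34 and 7.15 CPM in control and 1.47 and 1.86 CPM in ERβ1 (log2 change -2.19 ± 0.28 (SE), edgeR adjusted p = 0.00128).

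With 1 library left out the counts of these lists were the same or lower. Without control 1, control 2, ERβ1 1 and ERβ1 2 in turn, 6, 10, 8 and 6 replication genes fell, 2, 7, 2 and 5 recombination genes, and 2, 4, 6 and 2 cyclins, CDKs and E2F genes. At an unadjusted p under 0.05, 0 genes of mitosis, replication and deoxynucleotide synthesis were higher and 1 of the recombination list was. DESeq2 called 0 higher among the genes of mitosis, replication, deoxynucleotide synthesis and recombination. Over all 13375 genes it tested, DESeq2 called 335 higher and 518 lower. How many of all genes lay under the unadjusted limit was not counted. List counts at that limit, here and below, are therefore a description without a background. Among the cyclins, CDKs and RB and E2F genes, 4 were higher and 11 lower at that unadjusted limit, and DESeq2 called 1 higher and 8 lower. Histone genes went the other way: 5 of 22 rose (22.7% against 1.36%) and 0 fell, with a median of 0.36. They were HIST1H1E, HIST1H2BC, HIST1H2BG, HIST2H2BE and HIST2H2BF, which have near-identical copies, so their levels are uncertain. HIST1H2BG was at 15.6 and 17.4 CPM in control and 33.8 and 26.4 CPM in ERβ1 (log2 change 0.87 ± 0.15 (SE), edgeR adjusted p = 0.00776). Without control 1, control 2, ERβ1 1 and ERβ1 2, 1, 2, 0 and 4 of the histone genes rose. With an unadjusted p under 0.05 as the limit, 1 histone gene was lower, and DESeq2 called 0 lower.

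Interferon-stimulated genes held more of the rises than any other list, though by share of tested members immediate early genes were ahead (29.2%). Of 47 tested members, 11 rose (23.4% against 1.36% of all genes) and 0 fell, 46 of 47 had a positive log2 change, and the median was 0.77. The rises were modest, from 0.81 to 1.64 on the log2 scale. In ERβ-KO and ERβ5 the list lay far higher, with medians of 2.38 and 3.18 against the same control libraries, so that ERβ1 lay between control and either of them. The summed level of the list was 3079.8 and 3176 CPM in control, 5361 and 5751 CPM in ERβ1, 16061 and 13689.6 CPM in ERβ-KO, 21088 and 35377 CPM in ERβ5.

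IFI44L, an interferon-induced protein (chromosome 1, 79085587 to 79111830), was at 33.4 and 33.5 CPM in control and 84.6 and 123 CPM in ERβ1. It rose 3.11-fold (log2 change 1.64 ± 0.16 (SE), edgeR adjusted p = 0.000366), and the control libraries were almost equal while ERβ1 2 was above ERβ1 1. It was at 594 and 509 CPM in ERβ-KO. IFIT1, which binds foreign RNA, was at 76.6 and 74.6 CPM in control and 206 and 258 CPM in ERβ1 (log2 change 1.62 ± 0.21 (SE), edgeR adjusted p = 0.00282), and without control 1 its adjusted p was 0.0519. The ubiquitin-like ligase HERC6 was at 12.8 and 12.3 CPM in control and 32.6 and 40.1 CPM in ERβ1 (log2 change 1.54 ± 0.14 (SE), edgeR adjusted p = 0.00023). BST2 (tetherin), which holds budding viruses at the cell surface and was chosen after its values were seen, was at 79.5 and 88.4 CPM in control and 166 and 156 CPM in ERβ1 (log2 change 0.94 ± 0.13 (SE), edgeR adjusted p = 0.00172). The groups did not overlap in these genes, nor in any of the 565 called genes. For IFI44L, IFIT1 and HERC6 the lack of overlap was a condition of their choice.

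IFI6 was at 350.5 and 408 CPM in control and 859.6 and 943 CPM in ERβ1 (log2 change 1.25 ± 0.23 (SE), edgeR adjusted p = 0.0159), the membrane protein IFITM1, which has close relatives, at 29.9 and 32.1 CPM in control and 72.6 and 78.6 CPM in ERβ1 (log2 change 1.29 ± 0.28 (SE), edgeR adjusted p = 0.0391), and the antiviral sensor OAS2 at 71.0 and 71.3 CPM in control and 164 and 174 CPM in ERβ1 (log2 change 1.25 ± 0.25 (SE), edgeR adjusted p = 0.029). With any 1 library left out, adjusted p ran from 0.0869 to 0.22 for IFI6, from 0.164 to 0.388 for IFITM1 and from 0.14 to 0.305 for OAS2. OAS3, the RNA sensor DDX58 and its relative DDX60 also rose, with log2 changes of 0.95 ± 0.17, 0.96 ± 0.20 and 0.81 ± 0.14 (edgeR adjusted p = 0.0122, 0.0291 and 0.00789). OAS3 and DDX58 did not pass with any 1 library left out (adjusted p from 0.0694 to 0.104 and from 0.126 to 0.268), and DDX60 passed in 1 of those 4 fits. With GC and length trends removed, DDX58 and OAS2 did not pass (adjusted p = 0.081 and 0.0549). ISG15, a modifier protein, was at 69.0 and 66.7 CPM in control and 149 and 166 CPM in ERβ1 without passing (log2 change 1.22 ± 0.34 (SE), edgeR adjusted p = 0.0853). With control 1, control 2, ERβ1 1 and ERβ1 2 left out in turn, 4, 5, 6 and 5 members rose. In a fit of the 4 libraries alone 31 rose, and in DESeq2 19. Both runs also called more genes higher over all genes, 486 of 13737 and 335 of 13375. At an unadjusted p under 0.05, 30 were higher and 0 lower, and DESeq2 called 0 lower. The number of all genes under that unadjusted limit was not counted.

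Promoters of the interferon-stimulated genes were searched for the core of the interferon-stimulated response element (ISRE, GAAANNGAAA, both strands), since the genes moved together. Of the 11 members that rose, 8 had a promoter in the table and 7 of these held the core (87.5%), against 3.65% of all 27305 promoters. Among members tested and not called, 18 of 29 held it (62.1%). The windows of IFI44L (chr1:78620198-78620497, plus strand), with matches beginning 164 and 73 bases before the start, and IFIT1 (chr10:89392373-89392672, plus strand), with matches on the other strand beginning 116 and 103 bases before it, show the core in capitals. They were chosen after the values were seen.
IFI44L: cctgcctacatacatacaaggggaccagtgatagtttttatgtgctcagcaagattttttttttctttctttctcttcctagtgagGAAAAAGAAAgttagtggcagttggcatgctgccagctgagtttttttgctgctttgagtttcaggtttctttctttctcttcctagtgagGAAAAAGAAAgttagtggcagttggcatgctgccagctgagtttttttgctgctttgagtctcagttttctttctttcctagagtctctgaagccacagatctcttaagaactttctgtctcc
IFIT1: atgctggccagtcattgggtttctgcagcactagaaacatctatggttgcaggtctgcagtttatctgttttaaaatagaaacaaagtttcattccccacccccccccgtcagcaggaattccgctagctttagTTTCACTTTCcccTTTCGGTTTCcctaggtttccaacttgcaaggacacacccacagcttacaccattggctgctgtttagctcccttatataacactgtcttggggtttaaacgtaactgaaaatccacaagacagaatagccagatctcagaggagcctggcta
HERC6, which rose as well, held no match in its window.

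Genes of antigen presentation, which display peptides to immune cells, had 1 rise and 2 falls among 22 tested (4.55% against 1.36% and 9.09% against 2.70% of all genes), with a median of 0.24. With any 1 library left out 0 rose and 0 fell, while in a fit of the 4 libraries alone 8 rose and 2 fell. The peptide-loading chaperone TAPBP rose (0.53 ± 0.12, edgeR adjusted p = 0.0338), while CALR and PDIA3, which also fold proteins in the endoplasmic reticulum, fell.

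**Figure D2:**
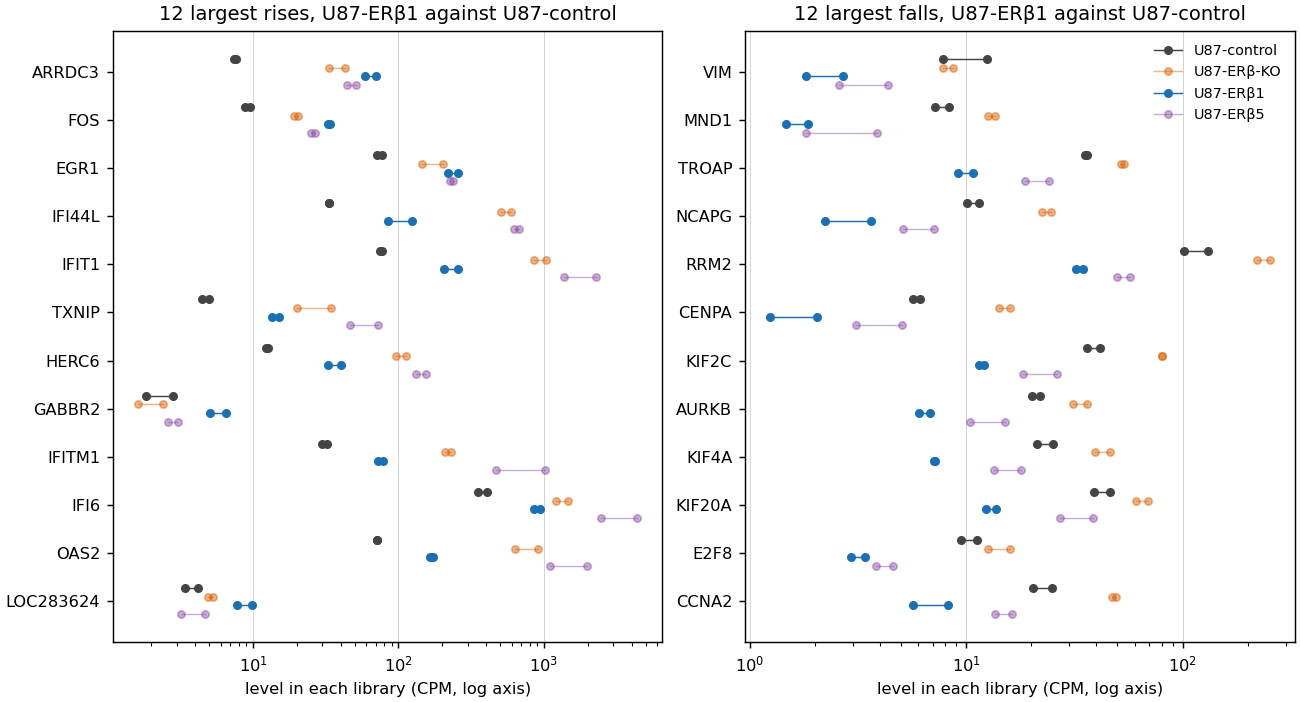
Levels in each library (horizontal, CPM on a log axis) of the 12 genes with the largest rises and the 12 with the largest falls among called genes whose higher group averaged at least 5 CPM; points are libraries, and a line joins the 2 of a group. ERβ1 (blue) is separate from control (dark grey) in all 24 genes because the absence of overlap was a condition of their choice. The interferon genes of ERβ1 lie between control and ERβ-KO or ERβ5.

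Among called genes whose higher group averaged at least 5 CPM, the largest rise was that of ARRDC3, an arrestin-domain protein that helps to take receptors from the cell surface. It was at 7.35 and 7.64 CPM in control and 58.5 and 69.5 CPM in ERβ1 (chromosome 5, 90664448 to 90679134, minus strand), which is 8.55-fold (log2 change 3.10 ± 0.16 (SE), edgeR adjusted p = 4.13e-06). ARRDC3 was also above control in ERβ-KO, at 43.2 and 33.3 CPM, and in ERβ5, at 44.6 and 51.2 CPM. Its relative TXNIP, which binds thioredoxin and responds to glucose, was at 4.43 and 4.97 CPM in control and 13.6 and 15.1 CPM in ERβ1 (log2 change 1.61 ± 0.28 (SE), edgeR adjusted p = 0.0138), and did not pass with any 1 library left out (adjusted p from 0.0861 to 0.187). GABBR2, a GABA receptor subunit, was at 1.82 and 2.81 CPM in control and 6.50 and 5.08 CPM in ERβ1 (log2 change 1.31 ± 0.25 (SE), edgeR adjusted p = 0.0145), while ERβ-KO was at 2.41 and 1.61 CPM. Without control 1 or ERβ1 1 the adjusted p of GABBR2 was 0.204 and 0.105. The last of the 12 largest rises, the noncoding LOC283624, was at 3.38 and 4.18 CPM in control and 9.84 and 7.81 CPM in ERβ1 (log2 change 1.22 ± 0.21 (SE), edgeR adjusted p = 0.00724), and its adjusted p was 0.114 without control 1 and 0.0653 without ERβ1 1.

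Immediate early genes are switched on within minutes of a growth signal, and many of them encode transcription factors. Of 24 tested members, 7 rose (29.2% against 1.36%) and 0 fell, with a median of 0.28. FOS, a subunit of the AP-1 factor, was at 8.76 and 9.58 CPM in control and 33.7 and 32.8 CPM in ERβ1 (log2 change 1.86 ± 0.12 (SE), edgeR adjusted p = 2.88e-05). EGR1 was at 70.9 and 76.5 CPM in control and 255 and 219.9 CPM in ERβ1 (log2 change 1.69 ± 0.15 (SE), edgeR adjusted p = 0.000186). For FOS and EGR1 the lack of overlap was a condition of their choice. With 1 library left out their log2 changes ran from 1.79 to 1.92 and from 1.58 to 1.79. Both were above control in the other groups as well. FOS was at 20.35 and 19.24 CPM in ERβ-KO and 25.02 and 26.6 CPM in ERβ5. EGR1 was at 201.5 and 144.4 CPM in ERβ-KO and 236.5 and 224.5 CPM in ERβ5. The median of the list was 0.264 for ERβ-KO minus control and 0.553 for ERβ5 minus control. The low-level EGR2 was at 0.389 and 0.546 CPM in control and 1.54 and 1.49 CPM in ERβ1 (log2 change 1.69 ± 0.32 (SE), edgeR adjusted p = 0.0124) and IER2 at 77.5 and 76.8 CPM in control and 132 and 116 CPM in ERβ1 (log2 change 0.68 ± 0.14 (SE), edgeR adjusted p = 0.0186). KLF6, KLF10 and CYR61 completed the 7, with log2 changes from 0.44 to 0.69. In fits without control 1, control 2, ERβ1 1 and ERβ1 2, 2, 3, 2 and 2 members rose. With an unadjusted p under 0.05 as the limit, 4 members were lower, and DESeq2 called 1 lower.

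By difference in mean CPM, the secreted chaperone CLU gained most, from 1447 and 1844 CPM to 3017 and 2592 CPM (log2 change 0.77 ± 0.14 (SE), edgeR adjusted p = 0.00999). Without control 1 or ERβ1 1 its adjusted p was 0.182 and 0.0986. The luminal keratin KRT18 was at 2140.0 and 2422 CPM in control and 3265 and 3104 CPM in ERβ1 (log2 change 0.48 ± 0.11 (SE), edgeR adjusted p = 0.0362), and the RNA helicase DDX5 at 1241 and 1347 CPM in control and 1982 and 1793 CPM in ERβ1 (log2 change 0.55 ± 0.11 (SE), edgeR adjusted p = 0.0146). Neither passed with any 1 library left out (adjusted p from 0.112 to 0.461 for KRT18 and from 0.0507 to 0.271 for DDX5). Other rises, named after their values were seen, kept their call in each such fit: the epithelial gene BCAS1 was at 43.4 and 54.3 CPM in control and 116 and 100.5 CPM in ERβ1 (1.15 ± 0.13, edgeR adjusted p = 0.000844), and the splicing factor SRSF5 at 147 and 165 CPM in control and 321 and 276 CPM in ERβ1 (0.94 ± 0.11, edgeR adjusted p = 0.000832).

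Some chaperones of the endoplasmic reticulum had lower transcript levels in ERβ1. Of 31 tested chaperones and genes of the unfolded protein response, 11 fell (35.5% against 2.70%) and 0 rose, with a median of -0.40, and 30 of 31 had a negative log2 change. HSP90B1, the chaperone GRP94, was at 3813 and 3834 CPM in control and 2121 and 2185 CPM in ERβ1 (log2 change -0.83 ± 0.11 (SE), edgeR adjusted p = 0.00194), and the disulfide isomerase PDIA4 at 1638 and 1669 CPM in control and 956 and 836 CPM in ERβ1 (log2 change -0.88 ± 0.12 (SE), edgeR adjusted p = 0.00198). Control replicates were within a few percent of each other in these genes, and ERβ1 was clearly below. HSPA5 (BiP), the main chaperone of the compartment, was at 4045 and 3930.0 CPM in control and 2207 and 2008 CPM in ERβ1 (log2 change -0.92 ± 0.19 (SE), edgeR adjusted p = 0.0255) and CALR (calreticulin) at 3460.0 and 3616 CPM in control and 2309 and 2033 CPM in ERβ1 (log2 change -0.70 ± 0.14 (SE), edgeR adjusted p = 0.0152). DNAJB11, a co-chaperone of HSPA5, was at 169.9 and 174 CPM in control and 106 and 95.9 CPM in ERβ1 (log2 change -0.77 ± 0.12 (SE), edgeR adjusted p = 0.00433), and PDIA6 at 1421 and 1506 CPM in control and 953 and 1013 CPM in ERβ1 (log2 change -0.57 ± 0.10 (SE), edgeR adjusted p = 0.00989).

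HSP90B1 and PDIA4 passed with each library left out. HSPA5 did not (adjusted p from 0.107 to 0.194), nor did CALR (0.0678 to 0.122) or PDIA6 (0.0537 to 0.107), and DNAJB11 did not without ERβ1 2 (0.0529). Without control 1, control 2, ERβ1 1 and ERβ1 2, 3, 4, 5 and 2 members fell. At an unadjusted p under 0.05, 18 members were lower and 0 higher, and DESeq2 called 13 lower and 0 higher. XBP1, the transcription factor of this response, was at 3489 and 3555 CPM in control and 3421 and 3557 CPM in ERβ1 and did not pass (-0.01, edgeR adjusted p = 0.956). In ERβ-KO HSP90B1 was at 1593 and 1798 CPM, PDIA4 at 597 and 723 CPM and HSPA5 at 1792 and 2938 CPM, and the median of the list was -0.15 for ERβ-KO minus control. In ERβ5 HSP90B1 was at 1483 and 1238 CPM and PDIA4 at 611.6 and 531.7 CPM. The median of the list was -0.561 for ERβ5 minus control, so ERβ5 was lower than ERβ1.

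Genes that ATF4 turns on when amino acids run short fell in 6 of 34 (17.6% against 2.70% of all genes) and rose in 0, with a median of -0.33. They were DDIT3, DDIT4, SHMT2, SLC3A2, SLC7A5 and SARS. SLC7A5, a transporter of large amino acids, was at 2624 and 2305 CPM in control and 1618 and 1534 CPM in ERβ1 (log2 change -0.65 ± 0.13 (SE), edgeR adjusted p = 0.0206), and the stress factor DDIT3, chosen after its values were seen, at 453 and 446 CPM in control and 239 and 221 CPM in ERβ1 (log2 change -0.96 ± 0.19 (SE), edgeR adjusted p = 0.0191). In each edgeR fit without 1 library, 0 members of this list fell, while with all libraries 21 were lower and 0 higher at an unadjusted p under 0.05 and DESeq2 called 13 lower and 0 higher. Genes of glycolysis and the hypoxia response fell in 6 of 31 (19.4% against 2.70% of all genes) and rose in 0, with a median of -0.39. The collagen hydroxylase P4HA1 was at 280.4 and 230.4 CPM in control and 135 and 154 CPM in ERβ1 (log2 change -0.82 ± 0.15 (SE), edgeR adjusted p = 0.00922), and LDHA, which makes lactate, at 1122 and 958 CPM in control and 693 and 635 CPM in ERβ1 (log2 change -0.65 ± 0.16 (SE), edgeR adjusted p = 0.0476). LDHA did not pass with any 1 library left out (adjusted p from 0.0927 to 0.42), with GC and length trends removed (0.059) or with a minimum of 1 CPM in 2 libraries. With control 1, control 2, ERβ1 1 and ERβ1 2 left out in turn, 1, 2, 1 and 1 of these genes fell. With an unadjusted p under 0.05 as the limit, 15 were lower and 2 higher, and DESeq2 called 8 lower and 0 higher.

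**Figure D3:**
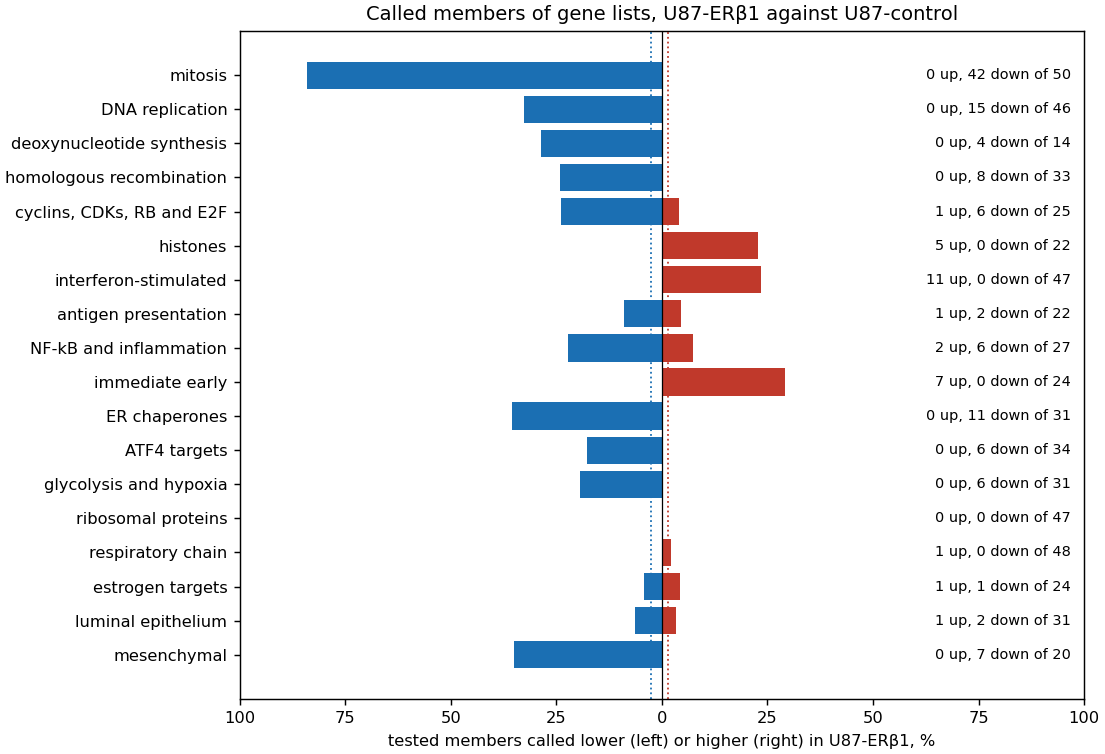
Bars give the percentage of tested members of each gene list that were called lower (left, blue) or higher (right, red) in ERβ1; dotted lines mark the same over all genes tested, 2.70% and 1.36%. The bar of mitosis reaches 84% to the left, and the longest bars to the right are those of immediate early genes (29.2%), interferon-stimulated genes (23.4%) and histones (22.7%).

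Some mesenchymal genes, most of them at low levels in every library, were lower in ERβ1 than in control. Of 28 mesenchymal genes, 20 passed the filter on low counts. Of these, 7 fell (35% against 2.70% of all genes) and 0 rose, and the median of the 20 was -0.68. Those that fell included VIM, FN1, COL6A2, SPARC, TNC and MMP2. A gene at such levels can pass the filter through other groups alone, so this count is a description and not support. In bulk RNA, fewer cells that express a gene and less RNA of it per cell cannot be told apart.

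VIM, the filament protein vimentin of mesenchymal cells (chromosome 10, 17270240 to 17279592), was at 7.81 and 12.4 CPM in control and 2.70 and 1.82 CPM in ERβ1. It fell 4.58-fold (log2 change -2.20 ± 0.29 (SE), edgeR adjusted p = 0.00185), with ERβ1 far under control, and passed with each library left out (adjusted p from 0.0021 to 0.0478). In ERβ-KO it was at 7.85 and 8.66 CPM and in ERβ5 at 2.58 and 4.37 CPM. The matrix protein TNC was at 1.34 and 1.53 CPM in control and 0.601 and 0.207 CPM in ERβ1 (log2 change -1.98 ± 0.41 (SE), edgeR adjusted p = 0.0196). Fibronectin (FN1), by far the highest of the set, was at 89.6 and 86.8 CPM in control and 63.4 and 52.7 CPM in ERβ1 (log2 change -0.61 ± 0.14 (SE), edgeR adjusted p = 0.0341). TNC passed only without ERβ1 1, and FN1 passed in no fit without 1 library (adjusted p from 0.0631 to 0.259).

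The summed level of the 28 genes was 329 and 357 CPM in control, 318 and 269 CPM in ERβ1, 388 and 343 CPM in ERβ-KO, and 285 and 282 CPM in ERβ5. Of 7 mesenchymal markers, 2 reached 10 CPM in all 4 libraries, FN1 and COL1A1. COL1A1 was at 20.8 and 22.0 CPM in control and 29.44 and 16.05 CPM in ERβ1, with overlapping groups. POSTN had 0 reads and CDH2 was at most 0.273 CPM in the 4 libraries. The part of a small number of other cells in this result was not tested. In fits without control 1, control 2, ERβ1 1 and ERβ1 2, 3, 2, 2 and 1 members fell. At an unadjusted p under 0.05, 11 were lower and 1 higher, and DESeq2 called 6 lower and 0 higher.

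Inflammatory genes moved both ways. Of 27 tested NF-kB targets, 6 fell (22.2% against 2.70% of all genes) and 2 rose (7.41% against 1.36%), and their median was -0.02. Some of these genes have few reads in ERβ1 and can pass the filter through other groups alone. This count is therefore a description and not support. All 6 that fell are secreted: IL1B, IL6, IL8, CXCL2, CSF3 and LCN2. They are described here after their values were seen. IL1B, which encodes interleukin 1 beta, had 126 and 125 reads in control and 5 and 13 in ERβ1, or 3.06 and 3.41 CPM in control and 0.188 and 0.269 CPM in ERβ1 (log2 change -3.74 ± 0.32 (SE), edgeR adjusted p = 0.000157). The neutrophil growth factor CSF3 had 56 and 73 reads in control and 3 and 4 in ERβ1 (log2 change -4.11 ± 0.42 (SE), edgeR adjusted p = 0.000468), and the chemokine IL8 (CXCL8) had 56 and 67 reads in control and 4 and 12 in ERβ1 (log2 change -2.89 ± 0.35 (SE), edgeR adjusted p = 0.000917). The pentraxin PTX3, outside the list, had 24 and 21 reads in control and 0 and 0 in ERβ1. IL1B, CSF3, IL8 and PTX3 passed with each library left out, on few reads in ERβ1. LCN2, a protein that binds iron carriers, was at 30.0 and 31.1 CPM in control and 8.53 and 11.6 CPM in ERβ1 (log2 change -1.59 ± 0.30 (SE), edgeR adjusted p = 0.0199). The chemokine CCL5, which is also induced by interferon, rose (1.83 ± 0.38), as did NFKBIZ (0.71 ± 0.17, edgeR adjusted p = 0.0221 and 0.0411). With any 1 library left out, 3 genes fell and 0 rose, and LCN2 was not among those that passed (adjusted p from 0.11 to 0.169).

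**Figure D4:**
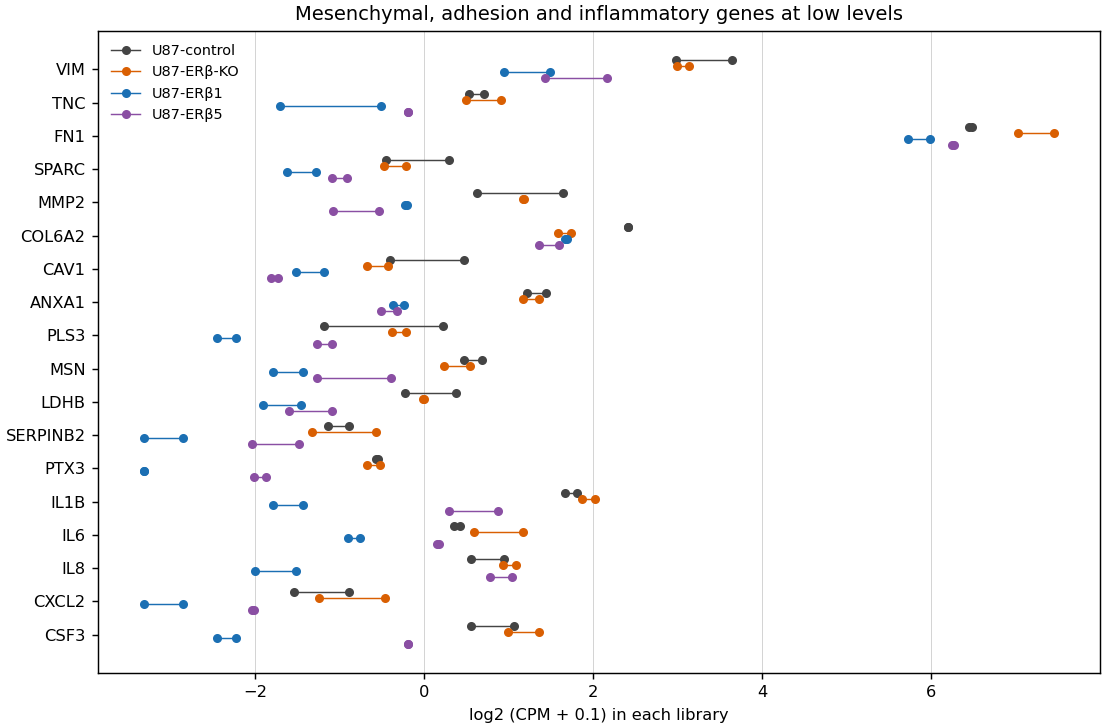
Levels in each library, as log2 of CPM plus 0.1 (horizontal), of 18 mesenchymal, adhesion and inflammatory genes, most of them chosen after their values were seen; points are libraries and a line joins the 2 of a group. Control (dark grey) and ERβ-KO (orange) lie to the right of ERβ1 (blue) for most genes, and most of these genes are under a few CPM throughout.

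Of the receptors and targets of estrogen, few passed the test. ESR1, which encodes estrogen receptor alpha, was at 131 and 115 CPM in control and 119 and 128 CPM in ERβ1. The groups overlapped, and the log2 change was 0.00 ± 0.12 (edgeR adjusted p = 0.998), negative in some of the alternative settings. GPER, the membrane estrogen receptor, was at 4.04 and 3.36 CPM in control and 6.27 and 6.20 CPM in ERβ1 (log2 change 0.75 ± 0.17 (SE), edgeR adjusted p = 0.0333), but did not pass with any 1 library left out (adjusted p from 0.116 to 0.27). PGR, a classic target of estrogen receptor alpha, had 0 reads in all 4 libraries and was not tested. Of 24 tested estrogen targets, 1 rose (CCND1, 4.17% against 1.36% of all genes) and 1 fell (SERPINA1, 4.17% against 2.70%), with a median of 0.03. At an unadjusted p under 0.05, 9 targets were higher and 3 lower. In a fit of the 4 libraries alone 5 rose and 3 fell, and DESeq2 called 4 higher and 3 lower. Cyclin D1 (CCND1), which starts the cycle in G1, was at 493 and 526 CPM in control and 789.8 and 752 CPM in ERβ1 (log2 change 0.60 ± 0.12 (SE), edgeR adjusted p = 0.0149), and did not pass with any 1 library left out (adjusted p from 0.0645 to 0.224). SERPINA1, a protease inhibitor, was at 111 and 111 CPM in control and 74.7 and 72.0 CPM in ERβ1 (log2 change -0.60 ± 0.09 (SE), edgeR adjusted p = 0.00403), and its adjusted p without control 1 was 0.0722.

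Among other regulators, CDKN1A, MYC and EGFR did not pass. The CDK inhibitor CDKN1A (p21) was at 592 and 736 CPM in control and 699 and 467 CPM in ERβ1, with overlapping groups (log2 change -0.19 ± 0.19 (SE), edgeR adjusted p = 0.643), and its direction turned without ERβ1 2. MYC averaged 90.4 ± 5.45 CPM (SD, n = 2) in control and 106.5 ± 9.25 CPM in ERβ1, with groups that did not overlap (log2 change 0.24 ± 0.10 (SE), edgeR adjusted p = 0.23), and EGFR, the growth factor receptor often amplified in glioblastoma, was at 5.67 and 5.21 CPM in control and 4.47 and 4.40 CPM in ERβ1 (log2 change -0.30 ± 0.17 (SE), edgeR adjusted p = 0.368).

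Luminal genes had 1 rise (KRT18, 3.23% against 1.36% of all genes) and 2 falls (AGR2 and KRT81, 6.45% against 2.70%) among 31 tested, with a median of 0.06. Against a minimum change of 1.5-fold 0 of them rose and 0 fell. AGR2, a secretory disulfide isomerase of luminal cells chosen after its values were seen, was at 502 and 518 CPM in control and 278 and 264 CPM in ERβ1 (log2 change -0.91 ± 0.11 (SE), edgeR adjusted p = 0.00092). It passed with each library left out, and it lay at 529.7 and 551 CPM in ERβ-KO. The keratin KRT8, partner of KRT18, was at 2980.0 and 3292 CPM in control and 4453 and 3890.0 CPM in ERβ1 and did not pass (0.41 ± 0.11, edgeR adjusted p = 0.0681). In the glial and glioma list 0 of 7 tested members passed edgeR's test, 0 were under an unadjusted p of 0.05 and 0 passed in DESeq2.

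**Figure D5:**
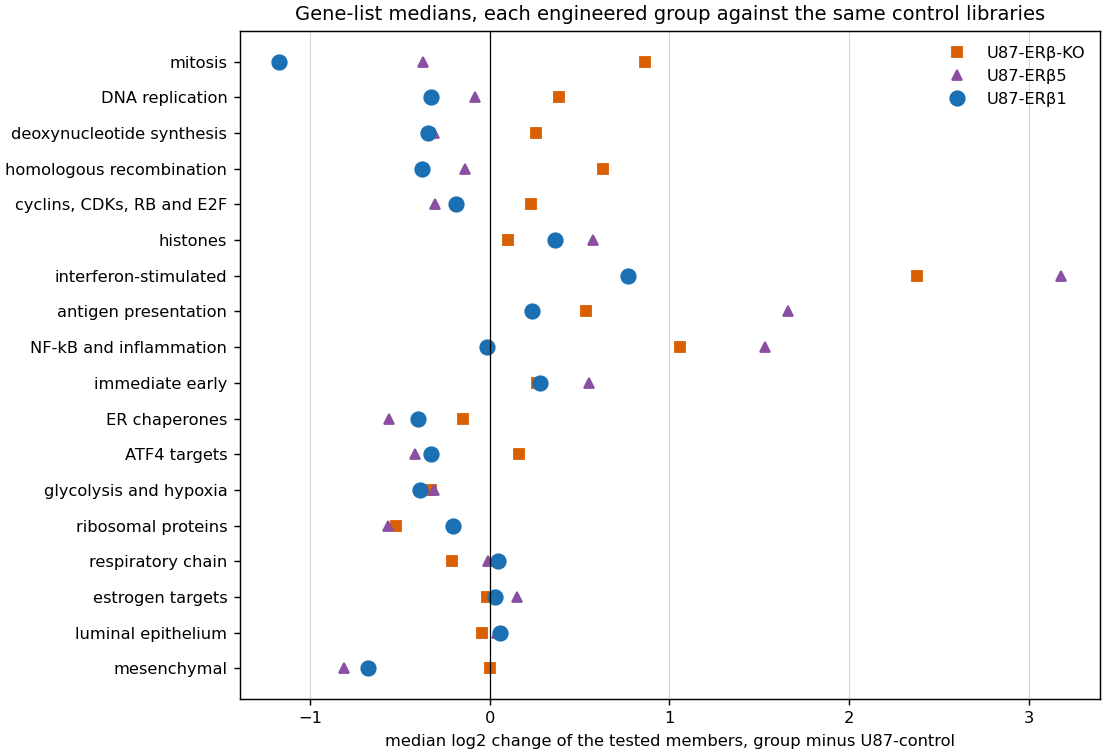
Median log2 change of the tested members of each gene list against the same control libraries (horizontal), in ERβ1 (blue circles), ERβ-KO (orange squares) and ERβ5 (purple triangles). For mitosis ERβ1 lies at -1.18 with ERβ-KO on the other side of 0 at 0.86, and for interferon-stimulated genes ERβ1 lies at 0.77, below ERβ-KO at 2.38 and ERβ5 at 3.18.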

How the data were processed

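Single-end libraries of total RNA were analysed from the read counts per gene that the authors deposited, 1 file per library. Per the submitters' processing notes, bcl2fastq, TopHat2 2.0.8b, hg19 and HTSeq were used. No source used here gives the HTSeq version, its strand setting or its annotation, so reads of overlapping antisense genes cannot be told apart. Each file closes with 5 entries that name no gene, which were left out: alignments without a unique place made up 34.7 to 39.9%, reads outside genes 7.01 to 7.79% and ambiguous reads 0.54 to 0.561%. Reads with several places were not counted in genes, so near-identical copies have uncertain levels. Gene reads per library, 26760897 to 48076414, limit the precision of low genes.

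Libraries were grouped by title. Genes were filtered with filterByExpr (minimum count 10, minimum total 15), scaled with TMM and compared by the robust quasi-likelihood F test of edgeR 4.0.16 in R 4.3.3. A single fit held all 8 libraries, and the spread was estimated over all 4 groups (common biological coefficient of variation 0.102). P-values were adjusted by Benjamini-Hochberg over all 13915 genes and called under 0.05. Standard errors are the size of the log2 change over the root of F. The procedure was tested on simulated data. The comparison, its 39 gene lists (1069 genes in the files, 970 tested) and the naming rule were chosen with earlier results of these data known. The rule names the 12 largest rises and falls whose higher group averaged at least 5 CPM and whose libraries did not overlap, up to 4 called members of each list with at least 25% called in 1 direction, 8 regulators (ESR2, ESR1, GPER, PGR, CDKN1A, CCND1, MYC, EGFR), and the 5 largest differences in mean CPM each way. Other genes were named after their values were seen. Gene positions are those of GENCODE on GRCh37, which matched 13249 tested genes (95.2%) by symbol. Promoters come from RefSeq. Some members of the lists are not reported here by name.

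The alternatives were RLE and upper quartile size factors, no low-count filter, at least 1 CPM in 2 libraries, a minimum change of 1.5-fold, the 4 libraries alone, DESeq2 1.42.0, a replicate block, removal of GC and length trends (lowess, span 0.3), both together, and each library left out in turn.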

Additional observations from a re-analysis of the deposited data

How the results depend on the processing

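RLE and upper quartile size factors and a minimum of 1 CPM in 2 libraries kept these counts of changed genes within 1.5 times. The list of endothelium and stroma has no value under the last of these. Without a low-count filter 1384 genes changed (648 higher, 736 lower), 327 at least 2-fold, 98 of them higher. Against a minimum change of 1.5-fold 86 did (9 higher, 77 lower), all at least 2-fold. In a fit of the 4 libraries alone 1107 changed (486 higher, 72 of them at least 2-fold, and 621 lower), with GC and length trends removed 1372 (588 and 784), and in DESeq2 853 (335 higher). With any 1 library left out, 128 to 235 changed, 14 to 71 higher and 114 to 183 lower; at least 2-fold 95 to 160 did, 8 to 28 higher and 87 to 132 lower. In those fits the spread of the lone library is taken from the other groups. The cause of these differences was not tested.

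Same-numbered control and ERβ1 libraries deviated from their group means with r = -0.101, so the numbers were not taken to pair the samples. With the number as a replicate block 573 genes changed (191 higher, 382 lower), 519 of them among the 565 (of the genes named, IFITM1, OAS2, LDHA, KLF10 and NFKBIZ did not pass, at adjusted p = 0.0515, 0.0613, 0.0622, 0.0528 and 0.0501), and with the replicate block and the GC and length correction 1497 (656 and 841). With the numbers crossed in a fit of the 4 libraries, an alternative added after the data were seen, 1806 changed (904 higher, 89 at least 2-fold, and 902 lower).

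ESR1 had a log2 change near 0 that turned to -0.005 with RLE, -0.012 with upper quartile factors, -0.010 and -0.007 with the GC and length correction without and with the block, -0.005 in DESeq2, -0.092 without control 2 and -0.054 without ERβ1 2, in a range of -0.092 to 0.099 with 1 library left out. CDKN1A turned to 0.074 without ERβ1 2, in a range of -0.506 to 0.074. Of the 147 named genes that changed, 34 passed in each alternative run and 44 with each library left out, and none turned direction where tested.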

Other observations

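Over all genes tested 1.36% rose and 2.70% fell, beside which the counts of the remaining gene groups are to be read. Ribosomal proteins, which have many pseudogene copies, had 0 of 47 members past edgeR's test. At an unadjusted p under 0.05, 12 were lower and 0 higher, DESeq2 called 4 lower, and their median was -0.21. The mitochondrial ribosome had 0 of 32 (3 lower and 0 higher at an unadjusted p, 0 in DESeq2), with a median of -0.03. EIF1, which helps to select start codons, was the 1 translation factor of 31 that changed (fell by 0.60 ± 0.13 on the log2 scale, edgeR adjusted p = 0.0271). Among 48 nuclear-encoded subunits of the respiratory chain and ATP synthase, COX6C rose (0.44 ± 0.10, edgeR adjusted p = 0.0301) and 0 fell, and the median was 0.04. Of 31 genes of cholesterol and lipid synthesis, the sterol reductase TM7SF2 rose (0.48 ± 0.11, edgeR adjusted p = 0.0372) and the desaturase FADS1 fell by 0.50 ± 0.11 (edgeR adjusted p = 0.029). The pentose phosphate enzyme TKT was the 1 of 21 NRF2 targets that changed (fell by 0.65 ± 0.11, edgeR adjusted p = 0.00769). Of 17 heat shock genes, the small heat shock protein HSPB8 (0.88 ± 0.17, edgeR adjusted p = 0.0144) and its partner BAG3 (0.55 ± 0.12, edgeR adjusted p = 0.0274) rose, 11.8% of that list. Apart from members of the naming rule, genes in these paragraphs were named after their values were seen. EIF1, COX6C and TM7SF2 did not pass with any 1 library left out, and FADS1, TKT, HSPB8 and BAG3 passed in 1 of those 4 fits.

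Among signalling genes, the growth factor EREG (epiregulin) fell from 0.876 and 1.39 CPM in control to 0.0751 and 0.0826 CPM in ERβ1 (-3.76 ± 0.47, edgeR adjusted p = 0.00106), and was the 1 of 24 genes of ERBB receptors and related kinases that changed. HES1, a repressor downstream of NOTCH, rose (0.47 ± 0.11, edgeR adjusted p = 0.0381), the 1 change among 18 NOTCH genes. The WNT receptor FZD4 fell by 0.53 ± 0.10 (edgeR adjusted p = 0.0121), the 1 change among 29 WNT genes. The IGF axis had 0 of 10 past edgeR's test (2 lower and 0 higher at an unadjusted p under 0.05, and DESeq2 called 1 lower). Among 21 genes of DNA methylation and polycomb, UHRF1, which guides maintenance methylation, fell from 5.55 and 4.26 CPM to 2.25 and 1.65 CPM (-1.36 ± 0.24, edgeR adjusted p = 0.00937), and the histone methyltransferase EZH2 fell by 0.51 ± 0.10 (edgeR adjusted p = 0.0177). Of 24 p53 targets, TP53INP1 rose (0.66 ± 0.11, edgeR adjusted p = 0.00619) and the death receptor TNFRSF10B fell by 0.51 ± 0.11 (edgeR adjusted p = 0.0302). In 26 genes of apoptosis the 1 change was that of BIRC5, and in 32 genes of lysosome and autophagy that of the galactosidase GLA (0.52 ± 0.12, edgeR adjusted p = 0.0338). Changes in the list of actin and adhesion genes included a rise of CRIP2 and falls of MSN and PLS3, and among S100 proteins and annexins S100A10 and ANXA9 rose and ANXA1 fell. Of 9 neuronal markers tested, L1CAM rose (11.1%) and SNAP25 and UCHL1 fell (22.2%). Markers of immune cells and of endothelium and stroma had 2 and 1 members tested, and 0 passed edgeR's test or DESeq2, with 1 immune marker lower at an unadjusted p under 0.05. EREG, BIRC5 and ANXA1 were called with each library left out. MSN passed in 3 of those 4 fits, UHRF1, TP53INP1 and CRIP2 in 2, FZD4 and PLS3 in 1, and HES1, EZH2, TNFRSF10B, GLA, S100A10, ANXA9, L1CAM, SNAP25 and UCHL1 in 0.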
